A study of Homo sapiens with 9 samples.

Results

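Antigen processing and presentation genes encode the MHC class I and class II molecules, the proteins that cut and load peptides for them, and their transcriptional regulators. The members were the probes whose platform gene symbol was 1 of 37 named genes, and 35 of these genes had a probe, 42 of the 22177 probes in all. HLA-DQA1 and PSMB9 had none under their symbols and were not analysed here. A probe was tested where its detection p-value, its rank among negative controls, was under 0.05 on at least 3 of 9 arrays, and 28 of the 35 genes were tested, among 11228 genes in all. The 7 that were not are HLA-F, HLA-G, HLA-DOA, HLA-DPB1, HLA-DQB1, PDIA3 and ERAP1, and 17 of the 35 genes were detected on all 9 arrays.

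The study used Illumina bead arrays on 3 human leukaemia lines, NB4 (promyelocytic), U937 (monocytic) and K562 (erythroid, from a chronic myeloid leukaemia, although the labels call it AML). A line was untreated or held for 6 h with 5 µM of 1 inhibitor of histone deacetylases (HDACs), and each line and treatment had 1 array. SAHA, also known as vorinostat, carries a hydroxamic acid group and blocks HDACs of more than one class. MS-275, also known as entinostat and given as MS in the sample titles, is a benzamide selective for class I HDACs. Both were dissolved in DMSO, and the labels do not say whether untreated cells received the solvent, so its effect and that of the inhibitors cannot be told apart. All lines were grown in RPMI with 10% foetal bovine serum. Nothing in the labels says that arrays of a line came from separate cultures, so the 3 lines were the replicates of a treatment. The p-values of a treatment measure the spread of its effect between these lines.

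The lines were checked against their markers. All 6 erythroid markers with a probe (HBG1, HBG2, HBE1, HBZ, GATA1 and ALAS2) were detected on all 3 K562 arrays, and 4 of 5 promyelocytic markers on all 3 NB4 arrays (CTSG, PRTN3, AZU1 and MPO). U937 also had 4 of the 5 promyelocytic markers, without MPO. Their list summed to a normalized intensity of 69668 to 72876 in U937 against 40635 to 44274 in NB4. ELANE, the remaining marker, had log2 normalized intensities of 14.67, 14.62 and 14.74 in untreated, MS-275 and SAHA arrays of U937. In NB4 it was 5.13, not detected, 5.85 and 5.70. Only MPO of this list was thus higher in NB4 than in U937. U937 had 4 of 5 monocytic markers (LYZ, CD68, MNDA and CSF1R) and the erythroid marker HBG2. NB4 detected the same 4 monocytic markers, at a summed normalized intensity of 2626 to 6160 against 10704 to 18500 in U937. K562 detected LYZ and CD68 on all 3 arrays. Each array detected 11826 to 12705 probes (53.3 to 57.3%), and the small number of arrays limits the precision, with a median standard error (SE) of 0.17 for the log2 change of a gene with SAHA. All levels below are log2 normalized intensities after background correction. The dimmest detected probe of an array stood at 5.17 to 5.30 on this scale, so values near 5 mean little or no signal.

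MHC class I molecules, a heavy chain bound to beta-2 microglobulin, show peptides cut in the cytosol by the proteasome and carried into the endoplasmic reticulum (ER) by the TAP transporter. Class II molecules show peptides from the endosome, where the invariant chain CD74 is cut away and HLA-DM exchanges the peptide. The coactivator CIITA, which works with the RFX complex, drives class II genes, and its relative NLRC5 drives class I genes. Class II is mostly restricted to monocytes, dendritic cells, B cells and other antigen-presenting cells, and loss of either class is known in leukaemia.

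The 3 lines held different parts of the pathway before any inhibitor was added. On the untreated arrays 28 of the 35 genes were detected in U937, 21 in NB4 and 18 in K562. U937 had class I and class II, NB4 had HLA-B but no detected HLA-DR or HLA-DP chain, and K562 had neither HLA-B nor any of these class II chains without inhibitor. The order of the lines was tested with limma over all 9 arrays with the treatment as a further term, and the spread of a line's 3 arrays includes the effect of the inhibitors. P-values between lines measure how far a line difference varied over the treatments, and not the spread between cultures of a line.

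**Figure D1:**
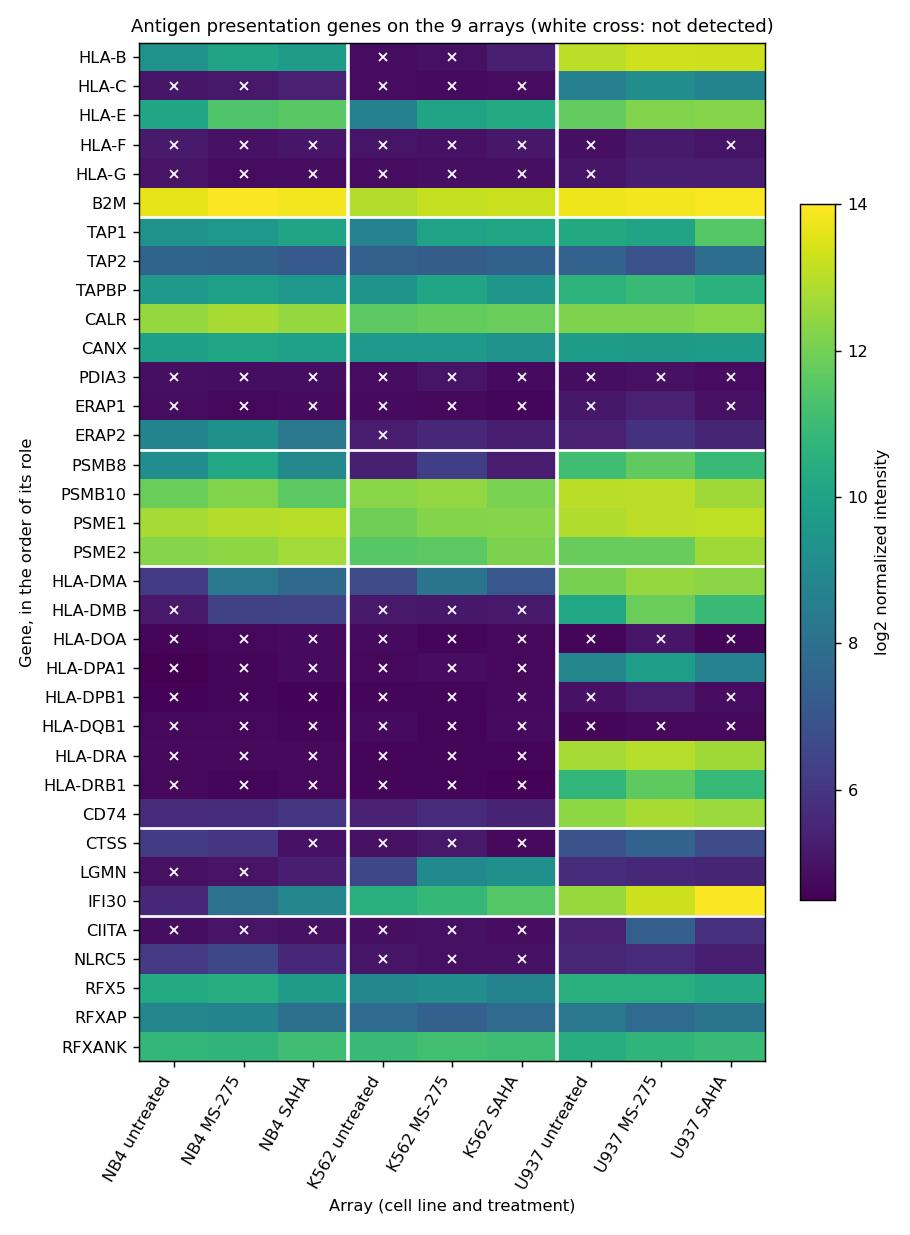
Level of the 35 genes on the 9 arrays as log2 normalized intensity (colour scale), with genes in rows by role (brightest tested probe, or the probe detected most often) and arrays in columns by line and treatment. White crosses mark arrays where the probe was not detected (detection p-value of 0.05 or more), and colours compare arrays within a row only. HLA-DRA, HLA-DRB1 and HLA-DPA1 are detected on U937 arrays only, and PSMB8 is dim on the 3 K562 arrays.

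The class I heavy chain HLA-B was 9.40, 10.05 and 9.71 in untreated, MS-275 and SAHA arrays of NB4, 4.81, 4.93 and 5.34 in K562, and 13.07, 13.31 and 13.26 in U937. The lines did not overlap, and K562 passed detection only on its SAHA array. With the undetected K562 arrays at their detection limit, HLA-B was at least 240.4-fold higher in U937 than in K562 (fitted log2 difference 8.19 ± 0.17 SE, adjusted p = 7.08e-08) and at least 21.3-fold higher in NB4 than in K562. HLA-C, another heavy chain, was 8.65, 9.15 and 8.77 in U937, 5.06, 5.14 and 5.38 in NB4 and 4.82, 4.79 and 4.82 in K562. NB4 passed detection on its SAHA array only and K562 on none, and U937 was at least 12.0-fold higher than K562 (adjusted p = 1.42e-06). HLA-C thus reached the detection filter only with its U937 arrays counted. Such lower bounds set each undetected array at its dimmest detected probe, or at the probe's own value where that was higher. Heavy chain genes are alike and vary between people, so probes for HLA-B and HLA-C need not tell them apart or match each line's alleles. HLA-E, which presents signal peptides of other class I molecules to natural killer cells, was detected on all 9 arrays, and was lowest in K562 (9.68 ± 0.87 SD, n = 3 arrays), higher in NB4 (11.02 ± 0.80) and highest in U937 (12.06 ± 0.28). Each step passed the test, with adjusted p = 0.00205 for NB4 against K562 and 0.00794 for NB4 against U937. B2M, the light chain of class I, was 13.65, 13.94 and 13.84 in NB4, 12.92, 13.18 and 13.22 in K562, and 13.75, 13.84 and 13.90 in U937. It was 1.65-fold higher in U937 than in K562, and NB4 and U937 differed by −0.02 with no call.

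The class II chains of HLA-DR and HLA-DP were detected in U937 alone. HLA-DRA, the alpha chain of HLA-DR, was 12.71, 12.96 and 12.65 in U937 4.75, 4.74 and 4.76 in NB4 and 4.67, 4.66 and 4.67 in K562, which did not detect it. It was at least 182-fold higher in U937 than in K562 and at least 183-fold higher than in NB4 (adjusted p = 4.02e-08 and 1.21e-07). HLA-DRB1, a beta chain, was at least 56.7-fold higher in U937 than in K562, and HLA-DPA1 at least 14.5-fold. HLA-DRA, HLA-DRB1 and HLA-DPA1 passed the detection filter through their U937 arrays alone. The filter thus fixed the direction of their line tests in advance. The paralogs HLA-DRB3, HLA-DRB4 and HLA-DRB5 were also detected on the U937 arrays only, and probes for HLA-DRB genes need not tell them apart. CD74, the invariant chain, was 12.40, 12.75 and 12.56 in U937, 5.64, 5.73 and 5.99 in NB4, and 5.38, 5.63 and 5.42 in K562. It was 137-fold higher in U937 than in K562 (adjusted p = 6.40e-08), with NB4 and K562 just above the dimmest detected probes. These values are from the brighter of its 2 probes. The other was 6.54, 7.13 and 6.74 in U937 and was detected on no array of NB4 or K562.

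HLA-DM, which exchanges the peptide, was not limited to U937. HLA-DMA, its alpha chain, was detected on all 9 arrays, at 6.16 in untreated NB4, 6.66 in untreated K562 and 12.04 in untreated U937, and U937 was 31.9-fold above K562 over the 3 treatments. HLA-DMB, its beta chain, was 10.16, 11.85 and 10.88 in U937, was detected on both treated NB4 arrays and no untreated one, and on 0 of 3 K562 arrays. HLA-DOA, which encodes a chain of the HLA-DM inhibitor HLA-DO, and HLA-DQB1 were detected on no array, and HLA-DPB1 on the MS-275 array of U937 only.

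Among regulators, CIITA was 5.39, 7.37 and 5.76 in U937, 4.85, 5.00 and 4.92 in NB4 and 4.88, 4.94 and 4.82 in K562. It was detected on the 3 U937 arrays and on no other, so it passed the detection filter through U937 alone. Its level was at least 1.87-fold higher in U937 than in K562 (adjusted p = 0.0200). This bound was 1.24-fold without the MS-275 arrays, and the call was lost without the SAHA arrays (adjusted p = 0.0609). NLRC5 was 6.08, 6.56 and 5.58 in NB4 and 5.52, 5.65 and 5.28 in U937 and 5.06, 4.93 and 4.91 in K562, where it was not detected. RFX5, RFXAP and RFXANK, which encode the RFX complex that binds class I and class II promoters, were detected on all 9 arrays. These include the arrays of lines without a detected HLA-DR or HLA-DP chain. RFX5 was 2.69-fold higher in U937 than in K562 and 2.28-fold higher in NB4 than in K562, and RFXANK did not pass the test between any 2 lines. RFXAP was 1.81-fold higher in NB4 than in K562 (adjusted p = 0.0174), a call lost without the untreated arrays (0.123) and without the MS-275 arrays (0.122).

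PSMB8, the immunoproteasome subunit LMP7, had the widest line difference of the class I processing genes. It was 9.15, 10.18 and 8.97 in NB4, 5.33, 6.26 and 5.24 in K562, and 11.09, 11.68 and 10.91 in U937. The lines did not overlap, and U937 was 49.0-fold above K562 (adjusted p = 1.45e-07). On this brighter probe the untreated and SAHA arrays of K562 stood just above their dimmest detected probes (5.30 and 5.23). Its second probe had a narrower difference, at 10.14, 10.83 and 9.83 in U937 and 5.81, 6.63 and 5.76 in K562. PSMB10, PSME1 and PSME2, another immunoproteasome subunit and both chains of the PA28 activator, were bright in all lines (11.53 to 13.11), with line differences of at most 1.01 on the log2 scale. ERAP2, an ER aminopeptidase that trims peptides, was brightest in NB4, at 8.80, 9.28 and 8.28 in NB4 and 5.26 to 5.90 in the other lines, 10.6-fold higher in NB4 than in K562 and 9.19-fold higher than in U937 (adjusted p = 1.73e-05).

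In the endosomal pathway, IFI30, the thiol reductase GILT that opens disulphide bonds of antigens, was 5.61 in untreated NB4, 10.54 in K562 and 12.53 in U937. LGMN, the endosomal protease legumain, was brightest in K562 (6.56 untreated), and CTSS, the cathepsin that cuts CD74, was brightest in U937 (6.93, 7.49 and 6.72) and detected on no K562 array. In all, 22 of 28 tested members differed between U937 and K562, 21 of them higher in U937, where 53.5% of all genes tested were called (25.8% higher, 27.7% lower). For NB4 against K562 the count was 16 (13 higher) with 50.4% of all genes called (26.2% higher, 24.2% lower), and for NB4 against U937 it was 18 (16 lower in NB4) with 44.8% (23.5% higher, 21.3% lower). The median log2 difference over the members was 1.16 for U937 against K562, beside −0.05 over all genes tested. The counts and median against U937 include HLA-DPA1, HLA-DRA, HLA-DRB1 and CIITA, which passed the detection filter through U937 alone. They also include HLA-C, HLA-DMB and CTSS, which reached the filter only with their U937 arrays counted. Restricted to probes detected on all 9 arrays, 12 of 17 members differed between U937 and K562, beside 4133 of 7736 genes. Between NB4 and U937 9 of 17 members differed, beside 3828 of 7736 genes.

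With SAHA, 4 of 28 tested members rose and 0 fell by limma with the line as a block, 14.3% of them, where 23.7% of all genes tested were called, 12% higher and 11.8% lower. These were HLA-E, TAP1, PSME2 and IFI30. With MS-275, HLA-E, HLA-DMA and PSMB8 rose and 0 members fell, 3 of 28, where 11.8% of all genes tested were called, 4.34% higher and 7.46% lower. Both comparisons share the untreated arrays. The median log2 change over the members was 0.12 with SAHA, beside −0.01 over all genes tested, and 0.23 with MS-275, beside −0.02. The members' share of calls was below that of all genes with SAHA and close to it with MS-275.

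**Figure D2:**
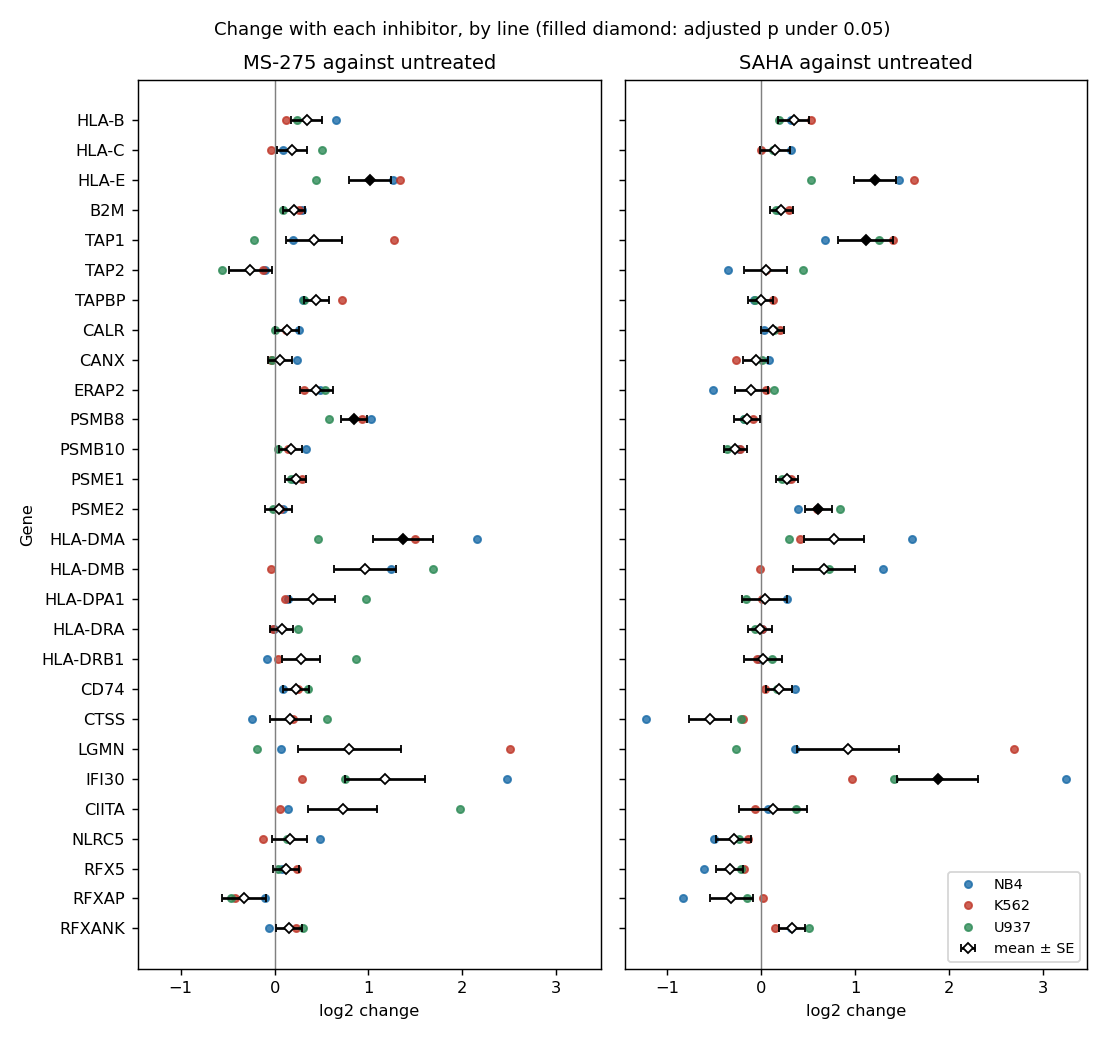
Log2 change of the 28 tested genes against the untreated array of the same line with MS-275 (left) and SAHA (right). Circles are lines, and diamonds with bars are the mean ± SE of the model, filled where the adjusted p was under 0.05. HLA-E is filled in both panels, PSMB8 and HLA-DMA with MS-275 only, and TAP1, PSME2 and IFI30 with SAHA only.

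HLA-E stood at 10.11, 11.37 and 11.59 in untreated, MS-275 and SAHA arrays of NB4, at 8.69, 10.03 and 10.32 in K562, and at 11.74, 12.18 and 12.26 in U937. Both treated arrays were above the untreated array in every line, by least in U937. It rose 2.32-fold with SAHA (log2 change 1.21 ± 0.22 SE, n = 3 lines, adjusted p = 0.00936) and 2.02-fold with MS-275 (1.02 ± 0.22, adjusted p = 0.0329). The difference between the inhibitors was 0.20, with a 95% interval of −0.33 to 0.72. With SAHA the call was lost without NB4 (adjusted p = 0.0962) and without K562 (0.0672), and with MS-275 it was lost without any 1 of the 3 lines (0.0691 to 0.192) and with no detection filter (0.0511).

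The other class I chains did not pass the test. HLA-B changed by 0.35 ± 0.17 with SAHA and 0.34 ± 0.17 with MS-275 (adjusted p = 0.179 and 0.213). It was higher in 3 of 3 lines with each, but K562 detected it on the SAHA array only. B2M changed by 0.22 ± 0.12 and 0.21 ± 0.12 (adjusted p = 0.233 and 0.267), also higher in 3 of 3 lines with each. HLA-C changed by 0.15 ± 0.16 and 0.18 ± 0.16, with no call.

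TAP1, a subunit of the peptide transporter, was 9.36, 9.56 and 10.04 in untreated, MS-275 and SAHA arrays of NB4, 8.71, 9.99 and 10.11 in K562, and 10.26, 10.04 and 11.51 in U937. SAHA was the highest array in each line, while MS-275 was near SAHA in K562 and near untreated in NB4 and U937. TAP1 rose 2.16-fold with SAHA (1.11 ± 0.30, adjusted p = 0.0332) and changed by 0.42 ± 0.30 with MS-275 (adjusted p = 0.377). The call with SAHA was lost without any 1 of the lines (adjusted p = 0.0690 to 0.109) and with no detection filter (0.0643). TAP2, the other subunit, changed by 0.05 ± 0.23 with SAHA and −0.26 ± 0.23 with MS-275, and the second probe of it by 0.14 and −0.19, with no call.

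TAPBP encodes tapasin, which bridges TAP and class I molecules. It was 9.64, 9.94 and 9.56 in NB4, 9.41, 10.14 and 9.54 in K562, and 10.64, 10.95 and 10.57 in U937, where MS-275 was the highest array of each line on this, the brightest of its 3 probes. The change with MS-275 was 0.45 ± 0.13 (adjusted p = 0.0717) and with SAHA −0.01 ± 0.13, while the other probes changed by 0.03 and −0.25 with MS-275 and by −0.20 and −0.18 with SAHA. With MS-275 the brightest probe passed without background correction (adjusted p = 0.0424) and over probes detected on all 9 arrays (0.0471). The ER chaperone genes CALR and CANX changed by −0.06 to 0.13 with either inhibitor, and ERAP2 by 0.45 ± 0.17 with MS-275 (adjusted p = 0.137) and −0.11 ± 0.17 with SAHA.

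PSMB8 rose 1.80-fold with MS-275 (0.85 ± 0.14, adjusted p = 0.0158), by 1.03 in NB4, 0.93 in K562 and 0.58 in U937, on top of levels that differed widely between the lines. With SAHA it changed by −0.15 ± 0.14 (adjusted p = 0.463) and was slightly lower in 3 of 3 lines. Its second probe gave mean changes of 0.74 with MS-275 and −0.23 with SAHA. The call with MS-275 was lost without any 1 of the lines (adjusted p = 0.0848 to 0.121). PSME2, a chain of the PA28 proteasome activator, was 12.29, 12.37 and 12.68 in NB4, 11.53, 11.60 and 12.13 in K562, and 11.80, 11.79 and 12.64 in U937. Only the SAHA arrays stood above untreated by more than 0.1 in each line. It rose 1.52-fold with SAHA (0.61 ± 0.14, adjusted p = 0.0217) and changed by 0.04 ± 0.14 with MS-275. The call with SAHA was lost without any 1 of the lines (0.0717 to 0.139), and with arrays scaled to equal medians (0.0620). PSME1, the other chain, changed by 0.27 ± 0.11 with SAHA and 0.23 ± 0.11 with MS-275 (adjusted p = 0.122 and 0.218). Its second, dimmer probe changed by 0.14 with SAHA and −0.13 with MS-275.

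HLA-DMA was 6.16, 8.31 and 7.77 in untreated, MS-275 and SAHA arrays of NB4, 6.66, 8.15 and 7.07 in K562, and 12.04, 12.49 and 12.33 in U937. MS-275 was the highest array in each line, and the lines with the lower untreated level had the larger change. HLA-DMA rose 2.59-fold with MS-275 (1.37 ± 0.32, adjusted p = 0.0386), and changed by 0.77 ± 0.32 with SAHA (adjusted p = 0.127). The call with MS-275 was lost without any 1 of the lines (0.0848 to 0.165) and with no detection filter (0.0679). HLA-DMB went from 5.14, not detected, to 6.38 with MS-275 and 6.44 with SAHA in NB4, stayed undetected in K562, and in U937 went from 10.16 to 11.85 with MS-275 and 10.88 with SAHA. Its mean change was 0.96 ± 0.33 with MS-275 and 0.67 ± 0.33 with SAHA (adjusted p = 0.101 and 0.189).

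The tested members among class II chains that present peptide, HLA-DRA, HLA-DRB1 and HLA-DPA1, were not detected in NB4 or K562 under any treatment. In U937 they and CD74 stood higher on the MS-275 array than on the untreated one, HLA-DRA by 0.24, HLA-DRB1 by 0.87, HLA-DPA1 by 0.97 and CD74 by 0.36. With SAHA the same genes differed from untreated by −0.06, 0.11, −0.16 and 0.17. CIITA was 3.94-fold higher on the MS-275 array than on the untreated one in U937, and 1.29-fold higher with SAHA. The MS-275 array of U937 had 6 of 6 tested class II chains above untreated and a median log2 change of 0.67 over them, beside −0.04 over all genes tested. CIITA and HLA-DMB were the 2 members of 28 at 2-fold or more there, 7.14%, where 4.64% of all genes tested were that much higher. These are 1 array against 1 array with no replicate check. Over the 3 lines CIITA did not pass with MS-275 (0.73 ± 0.37, adjusted p = 0.226).

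Single lines were also set against their own untreated array, at 2-fold or more and with no test. With SAHA 4 of 28 members were that much higher in NB4 (HLA-E, HLA-DMA, HLA-DMB and IFI30), 3 in K562 (HLA-E, TAP1 and LGMN) and 2 in U937 (TAP1 and IFI30), beside 9.19%, 6.45% and 6.29% of all genes tested. With MS-275 the same count was 5 in NB4 (HLA-E, HLA-DMA, HLA-DMB, IFI30 and PSMB8) and 4 in K562 (HLA-E, HLA-DMA, TAP1 and LGMN), beside 6.15% and 5.15%. CTSS with SAHA in NB4 was the only member that much lower in any line with either inhibitor, where 7.68%, 5.6% and 6.3% of all genes were lower in NB4, K562 and U937 with SAHA and 3.54%, 3.78% and 3.3% with MS-275.

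Some markers of other antigen-presenting cells were also higher on that array. Of the 3 B cell markers with a probe, CD79A was 9.20 in untreated U937, 10.90 with MS-275 and 8.16 with SAHA, CD79B was 6.60, 6.64 and 6.92, and MS4A1 was detected on no U937 array. Their summed intensity, 715, 2038 and 434, thus followed CD79A. No dendritic cell marker was detected on the untreated U937 array, and CD1C went from 5.12 there to 6.52 with MS-275, with sums of 101, 169 and 102 over the 3 genes. The monocytic markers summed to 12803, 18500 and 10704, and CSF1R among them was 8.33, 11.40 and 7.65. Over the 3 lines CD68 rose with MS-275 (0.77 ± 0.12), and CD68, LYZ and CSF1R were lower with SAHA than with MS-275. Their part in the class II values was not tested, and in bulk RNA fewer cells of a type and less RNA per cell cannot be told apart.

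**Figure D3:**
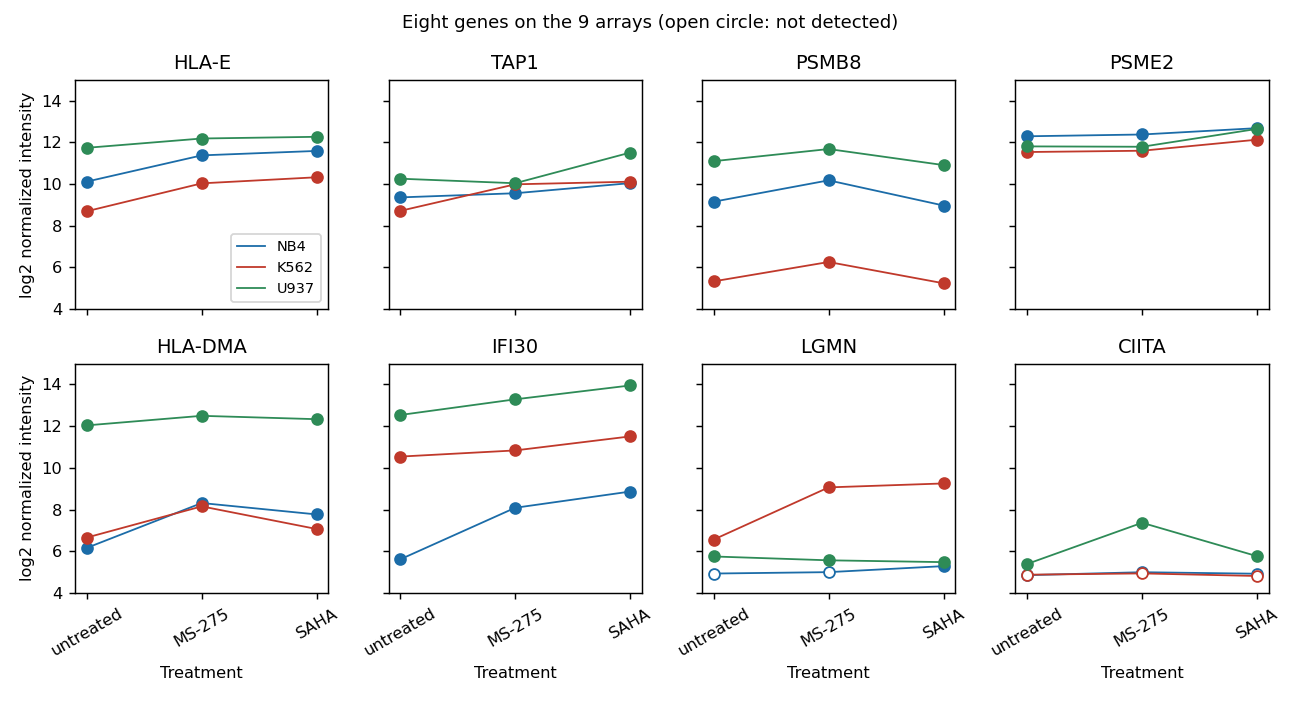
Level of HLA-E, TAP1, PSMB8, PSME2, HLA-DMA, IFI30, LGMN and CIITA as log2 normalized intensity in untreated, MS-275 and SAHA arrays. Each line of points is 1 cell line, and open circles mark arrays where the probe was not detected. LGMN stands apart on the treated K562 arrays (9.06 and 9.25 against 6.56 untreated), and CIITA on the MS-275 array of U937 (7.37 against 5.39).

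IFI30 was 5.61, 8.09 and 8.86 in untreated, MS-275 and SAHA arrays of NB4, 10.54, 10.84 and 11.51 in K562, and 12.53, 13.28 and 13.95 in U937. The order untreated, MS-275, SAHA held in each line, with the widest span in NB4, where SAHA was 9.54-fold above untreated. IFI30 rose 3.68-fold over the lines with SAHA (1.88 ± 0.43, adjusted p = 0.0197) and changed by 1.17 ± 0.43 with MS-275 (adjusted p = 0.117). The call with SAHA was lost without U937 (adjusted p = 0.0916).

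LGMN did not pass over the 3 lines with either inhibitor (0.93 ± 0.55 with SAHA, 0.80 ± 0.55 with MS-275), and differed between lines. It was 6.56, 9.06 and 9.25 in K562, 4.93, 5.00 and 5.29 in NB4, and 5.75, 5.57 and 5.48 in U937. In K562 the treated arrays were 5.68-fold (MS-275) and 6.47-fold (SAHA) above the untreated one, and in U937 both were lower than untreated. NB4 detected it on the SAHA array only. The limma test of line by treatment took both inhibitors together as treated. For LGMN it gave an unadjusted p of 0.00112 and an adjusted p of 1.00. In that test 0 of 28 members and 0% of all genes tested were called, with 1 member, LGMN, and 171 of all genes at an unadjusted p under 0.05.

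CTSS went from 6.20 in untreated NB4 to 5.96 with MS-275 and 4.97 with SAHA, where it was not detected, and its change over lines was −0.55 ± 0.22 with SAHA (adjusted p = 0.120). Of the regulators, RFX5 changed by −0.34 ± 0.14 with SAHA (lower in 3 of 3 lines, adjusted p = 0.126), and NLRC5 by −0.29 ± 0.19 (adjusted p = 0.302). NLRC5 was lower in NB4 and U937, and K562 detected it on no array. With MS-275 RFX5 and NLRC5 changed by 0.12 ± 0.14 and 0.16 ± 0.19. RFXAP changed by −0.32 ± 0.23 with SAHA and −0.33 ± 0.23 with MS-275, and RFXANK by 0.33 ± 0.14 and 0.16 ± 0.14, with no call. The second, dimmer probe of RFXANK changed by 0.58 with SAHA and 0.34 with MS-275, higher in 3 of 3 lines with each.

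The hydroxamic acid SAHA and the benzamide MS-275 were compared directly at the same dose and time, as 1 pair of compounds. Of the 28 tested members 4 differed, PSME2 higher with SAHA and PSMB8, PSMB10 and TAPBP higher with MS-275, 14.3% of them, where 23.6% of all genes tested were called, 13.4% higher with SAHA and 10.2% lower. PSMB8 had the largest of these differences, 2.00-fold lower with SAHA (log2 difference −1.001 ± 0.14, 95% interval −1.32 to −0.68, adjusted p = 0.00425), by −1.21 in NB4, −1.02 in K562 and −0.77 in U937. It was called also without any 1 of the lines. Its second probe differed by −1.02, −0.87 and −0.998 in the same order.

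PSMB10, which encodes the subunit MECL-1, was 11.86, 12.19 and 11.62 in untreated, MS-275 and SAHA arrays of NB4, 12.32, 12.47 and 12.10 in K562, and 13.00, 13.05 and 12.64 in U937. The SAHA array was the lowest and the MS-275 array the highest of each line. The difference was −0.45 ± 0.12 (95% interval −0.73 to −0.16, adjusted p = 0.0365), while neither inhibitor passed against untreated (−0.28 with SAHA, 0.17 with MS-275). TAPBP differed by −0.45 ± 0.13 (−0.76 to −0.14, adjusted p = 0.0467) on its brightest probe, and by −0.22 and 0.07 on its other 2 probes. Its call was lost with the mean of its probes (adjusted p = 0.290) and with arrays scaled to equal medians (0.119). PSME2 differed the other way, by 0.56 ± 0.14 (0.23 to 0.90, adjusted p = 0.0293). PSMB10, TAPBP and PSME2 lost their calls without any 1 of the lines, with adjusted p of 0.0740 to 0.2001.

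Members that missed the threshold between the inhibitors included CTSS (−0.72, 95% interval −1.24 to −0.19, adjusted p = 0.0560), ERAP2 (−0.55, −0.96 to −0.14, adjusted p = 0.0588) and RFX5 (−0.46, −0.78 to −0.13, adjusted p = 0.0537). ERAP2 and RFX5 were lower with SAHA in 3 of 3 lines. CTSS was lower in NB4 and U937, and K562 detected it on no array. For IFI30 the difference was 0.71 (−0.30 to 1.71), and for TAP1 0.69 (0.00 to 1.39), both higher with SAHA in 3 of 3 lines. For HLA-DMA it was −0.60 (−1.35 to 0.15). For B2M it was 0.00 (−0.27 to 0.28) and for HLA-B 0.00 (−0.39 to 0.39).

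**Figure D4:**
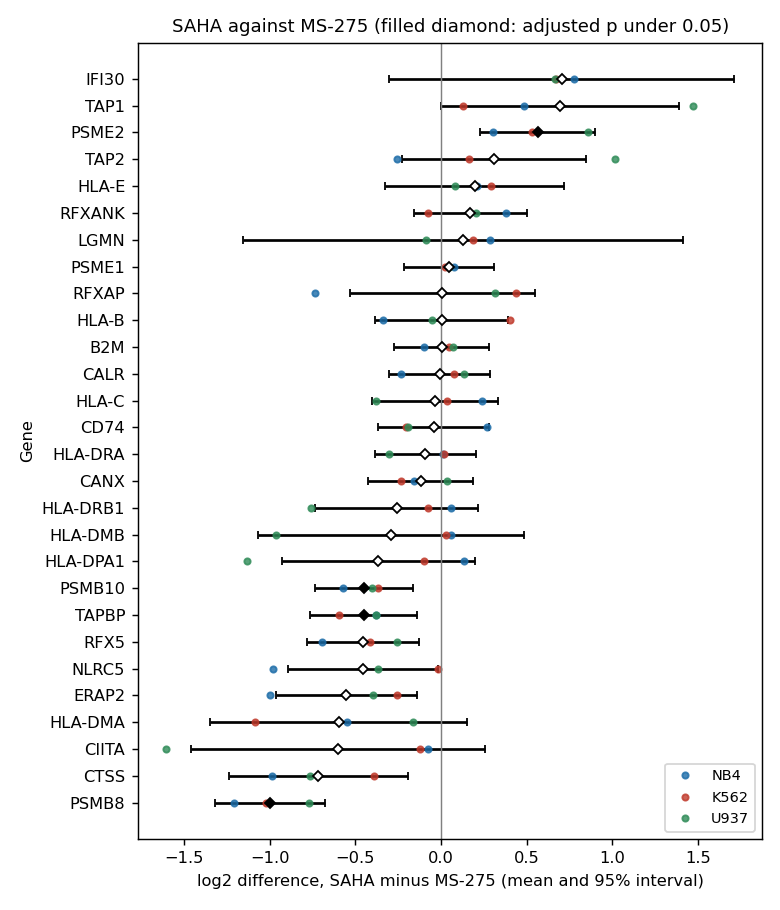
Log2 difference between SAHA and MS-275 for the 28 tested genes, in order of size. Circles are lines, and diamonds with bars are the mean and its 95% interval, filled where the adjusted p was under 0.05. PSMB8, PSMB10 and TAPBP lie below 0 and PSME2 above 0 in all 3 lines.

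The promoters of 5 of the genes whose transcripts passed a test are shown. TAP1 and PSME2 were higher with SAHA than untreated. PSMB8, PSMB10 and TAPBP (brightest probe) were lower with SAHA than with MS-275. IFI30 and HLA-DMA also passed a test and are not printed, and no promoter sequence was available for HLA-E. Each run is the 250 bases before the RefSeq start on build GRCh38.p14, printed 5′ to 3′ on the strand of the gene, and all 5 genes lie on the minus strand. Capitals mark matches on either strand to CCAAT (the CCAAT box), TGACG (the core of the CRE), GGGCGG (the GC box), the core of the interferon response element ISRE (GAAA, then any 2 bases, then GAAA), TTCNNNGAA (the STAT site GAS) or the NF-kappaB consensus. The windows are chr6:32853705-32853954 for TAP1, chr14:24146611-24146860 for PSME2, chr6:32844680-32844929 for PSMB8, chr16:67936851-67937100 for PSMB10 and chr6:33314079-33314328 for TAPBP.
TAP1: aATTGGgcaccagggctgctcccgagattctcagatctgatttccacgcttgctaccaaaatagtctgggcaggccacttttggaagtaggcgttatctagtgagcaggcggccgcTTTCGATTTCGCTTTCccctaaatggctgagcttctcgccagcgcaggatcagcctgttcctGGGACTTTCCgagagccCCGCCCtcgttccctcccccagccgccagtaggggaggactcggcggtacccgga
PSME2: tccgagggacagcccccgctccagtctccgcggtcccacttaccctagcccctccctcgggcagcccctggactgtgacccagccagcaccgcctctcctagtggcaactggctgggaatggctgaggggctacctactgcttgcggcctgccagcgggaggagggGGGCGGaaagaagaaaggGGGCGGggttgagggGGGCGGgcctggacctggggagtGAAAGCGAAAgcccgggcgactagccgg
PSMB8: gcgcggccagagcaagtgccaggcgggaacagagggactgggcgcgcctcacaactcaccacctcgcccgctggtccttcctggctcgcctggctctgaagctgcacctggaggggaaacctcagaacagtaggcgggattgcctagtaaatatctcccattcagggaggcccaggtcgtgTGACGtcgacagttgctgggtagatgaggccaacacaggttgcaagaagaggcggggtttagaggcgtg
PSMB10: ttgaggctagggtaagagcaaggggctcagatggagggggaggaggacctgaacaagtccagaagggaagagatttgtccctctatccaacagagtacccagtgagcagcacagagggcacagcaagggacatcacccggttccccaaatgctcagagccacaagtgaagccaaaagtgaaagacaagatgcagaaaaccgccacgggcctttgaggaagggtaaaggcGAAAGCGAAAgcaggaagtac
TAPBP: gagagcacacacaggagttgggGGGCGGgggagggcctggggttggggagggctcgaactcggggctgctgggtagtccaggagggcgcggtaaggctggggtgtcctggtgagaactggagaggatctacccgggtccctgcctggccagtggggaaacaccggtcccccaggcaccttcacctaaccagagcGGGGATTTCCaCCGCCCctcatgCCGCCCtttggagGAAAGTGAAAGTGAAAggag

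The ISRE core stands in the windows of TAP1 and TAPBP, with 2 overlapping matches in each, and of PSME2 and PSMB10, with 1 match. The PSMB8 window holds 1 match of the letters searched, a CRE core. The windows of IFI30 and HLA-DMA, which are not printed, hold no ISRE core. Of the printed genes with the core, TAP1 and PSME2 rose with SAHA, and PSMB10 and TAPBP were lower with SAHA than with MS-275. Whether the core bears on these changes was not tested. Over the 28 members with a probe and a window in the table, 7 held an ISRE core (25%), beside 3.07% of all 27305 windows of the same length. Those of the 7 not printed were TAP2 and B2M, which passed no test of the inhibitors, and HLA-F, which was not tested. The CCAAT box was in 17 (60.7%, beside 33.0%), the CRE core in 10 (35.7%, beside 21.7%), the GC box in 14 of the 28 (beside 42.3%), the NF-kappaB consensus in 8 (28.6%, beside 9.57%) and GAS in 0 (beside 6.78%). Some matches overlap each other, and a match is a run of letters, not a known binding site.

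Other genes of the pathway were taken from a list of 49, of which 38 were tested. With SAHA 3 rose and 4 fell (18.4%), where 23.7% of all genes tested were called. MICA, a stress-induced ligand of the natural killer receptor NKG2D, went from 7.95 to 10.94 in NB4, from 10.08 to 11.91 in K562 and from 8.29 to 9.75 in U937. It rose 4.26-fold (2.09 ± 0.28, adjusted p = 0.00312), and the kinase gene JAK1 (0.47 ± 0.13) and the interferon-gamma receptor gene IFNGR1 (1.08 ± 0.20) rose too. IFNGR2, the other receptor chain, fell (−1.63 ± 0.23), as did NFYC, a subunit of the CCAAT-binding factor (−1.08 ± 0.13), the constitutive proteasome subunit gene PSMB5 (−0.79 ± 0.12) and the aminopeptidase gene NPEPPS (−0.61 ± 0.17).

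With MS-275, 3 of the 38 rose and 2 fell (13.2%), where 11.8% of all genes tested were called. MR1, which presents vitamin metabolites to T cells, rose (0.91 ± 0.16, adjusted p = 0.0184), as did the cathepsin genes CTSB (0.90 ± 0.17) and CTSL (0.69 ± 0.18), the latter detected on 2 of 3 arrays of each group. The peptidase gene TPP2 (−0.73 ± 0.17) and the kinase gene JAK2 (−1.20 ± 0.30) fell. Between the inhibitors 10 of the 38 differed (26.3%, beside 23.6% of all genes tested), 3 higher with SAHA (MICA, TPP2 and JAK1) and 7 lower (TAPBPL, CD1D, MR1, CTSZ, NFYC, IFNGR2 and PSMB5). CD1D, which presents lipids, was 1.32 ± 0.29 lower on the log2 scale with SAHA than with MS-275 (adjusted p = 0.0189), and MICA was 1.41 ± 0.28 higher (adjusted p = 0.0122).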

How the data were processed

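Per the labels' protocols, total RNA was extracted with Trizol, treated with DNase and made into biotinylated cRNA. The authors deposited bead intensity per probe, not background-subtracted or normalized (array medians of 104.3 to 138.6), with a detection p-value per probe, also deposited by the authors, in steps of 1 in 708 going by its values. A table of log2 values was deposited as well by the authors, and the submitters' processing notes name lumi. They equalled the quantile-normalized log2 intensities within 0.001 for all 199593 values, which linked each of 22177 probes to 1 probe name. The platform annotation named 19708 probes, 0 with several symbols, and 2469 had no symbol here.

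Intensities were corrected with nec of limma 3.58.1 (offset 16, R 4.3.3) and quantile-normalized. Of 13836 probes that passed the detection filter, the brightest stood for each gene. Genes were fitted with limma as treatment plus line (4 residual degrees of freedom), and p-values were adjusted over all 11228 genes by Benjamini and Hochberg, with calls at an adjusted p under 0.05. The line test of treated against untreated had 3 residual degrees of freedom. The line pairs treated and untreated arrays, and all labels carry the same replicate number. Lower bounds set an undetected probe at the dimmest detected probe of its array. The fit was tested on simulated data. Members that passed a drug test, and HLA-B, HLA-C, HLA-E, B2M, TAP1, CD74, HLA-DRA, HLA-DMA, CIITA and NLRC5, were described with their values, the others by ranges or where a result turned on them. The members and lists were chosen with earlier results of these data known. Slide and scan date were not given in the sources used here, so no batch was tested. Alternatives covered background, offset, scaling, filters, block, probe choice, moderation and each line or treatment left out.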

Additional observations from a re-analysis of the deposited data

Results flagged for a closer look

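LGMN, the legumain gene, had different changes in the lines, with a p of 0.00112 before adjustment in the test of line by treatment and an adjusted p of 1.00. Both treated arrays were higher in K562 and lower in U937.

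Some probes left out for low detection were detected on a treated U937 array and not on the untreated one. On the MS-275 array HLA-F was at 5.20, HLA-G at 5.28, HLA-DPB1 at 5.24 and ERAP1 at 5.36, and on the SAHA array HLA-G was at 5.27, as log2 normalized intensity. The dimmest detected probe of those arrays stood at 5.17 and 5.19, so these values lie just above the limit of detection. The MS-275 array of U937 detected the most probes of all arrays, 12705.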

How the results depend on the processing

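Without the line as a block (no replicate block), 0 of the 28 members were called with SAHA, with MS-275 or between them, and 101, 2 and 72 of all genes. Leaving out a line gave 1 member each time with SAHA (lowest 1, highest 1), 0 with MS-275 (0 to 0) and 1 between the inhibitors (1 to 1), the last of them PSMB8. In those fits 887 to 1681, 0 to 237 and 511 to 1724 of all genes passed, so few calls of any kind remained with MS-275. Without a detection filter 1 of 35 members was called with MS-275 (PSMB8), beside 1178 of 16577 genes. With SAHA 4 were called there, beside 2468 of 16577 genes. Of these 4, 3 were shared with the 4 reported, as TAP1 lost its call. Restricted to probes detected on all 9 arrays, only 17 members could be tested. Of these, 12 were called between U937 and K562 (4133 of 7736 genes) and 9 between NB4 and U937 (3828 of 7736 genes). Leaving out a treatment gave 12 to 14 members between NB4 and K562, 18 to 20 between U937 and K562 and 16 to 18 between NB4 and U937. Of all 11228 genes, 4106 to 4850, 4527 to 5091 and 3327 to 4057 passed in those fits. The other counts stayed within 1.5 times, and for single members 1373 values stayed on their side of the threshold, 95 lost a call, 14 gained one and 0 reversed. With arrays scaled to equal medians the median of all genes moved from −0.02 to −0.14 with MS-275 and from −0.01 to −0.09 with SAHA, and the share of calls that were upward from 36.8 to 16.8% and from 50.4 to 35.6%. Under that scaling 3 of 28 members rose and 2 fell with SAHA, beside 2802 of 11228 genes called in either direction. The 2 that fell were PSMB10 (−0.44, adjusted p = 0.0361) and RFX5 (−0.54, adjusted p = 0.0325). The cause of these changes was not tested.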
